A study of Mus musculus with 6 samples.

Results

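The genes described here are the fibroblast growth factor (FGF) genes, their receptors, and the genes that FGF signalling commonly switches on as feedback, in the embryonic mouse pancreas of wildtype embryos and of embryos labelled as mutant for the homeobox gene Prox1. They were chosen by symbol alone: Fgf followed by a number, Fgfr1 to Fgfr4, Fgfrl1, Spry1 to Spry4, Spred1 to Spred3, Dusp4, Dusp6, Etv1, Etv4 and Etv5. The rule found 39 of the 23337 gene symbols in the count files. Of these, 28 had enough reads to be tested and 11 did not. Control pools came from wildtype NMRI embryos at E13.5 and mutant pools from NMRI embryos of the same age with the genotype Prox1 GFPCre/D, termed Prox1-nullyzygous in the series text. Each group had 3 pools, and each pool combined 5 to 6 dissected pancreata, so that no value belongs to 1 embryo. The labels name no batch and do not say that equal replicate numbers share a litter or a day. They name Trizol for the extraction, and the series' design text names a Qiagen column kit instead. The spread between pools may be partly technical, and p-values set the difference between groups against the spread between such pools.

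FGF ligands bind receptor tyrosine kinases together with heparan sulphate chains, and the activated receptors signal through the adaptor FRS2 and the RAS to ERK kinase cascade. The cascade switches on the ETS transcription factors Etv1, Etv4 and Etv5 and its own inhibitors, the Sprouty and Spred proteins and the ERK phosphatase Dusp6. In the developing pancreas, Fgf10 from the mesenchyme acts on an epithelial splice form of Fgfr2 and maintains epithelial progenitors.

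The libraries held 16060424 to 17633867 counted reads and 17332 to 17473 detected genes. The unit CPM, a count scaled to library size by the TMM method, stood for 15.9 to 17.48 reads, and 3 counts corresponded to 0.172 to 0.189 CPM. The biological coefficient of variation over all genes was 8.19%. The X-inactivation RNA Xist was at 2015 to 2814 CPM except in control pool 3 (0.526 CPM) and mutant pool 1 (0.1258 CPM), so results that called a member are also given without this pair of pools. Prox1 itself had 1764, 1687 and 1824 counts in the control pools, against 1330, 1774 and 1602 in the mutant pools. What the mutant alleles remove from the gene is not stated in the labels, so these counts do not check the genotype. The 8 listed markers of pancreatic epithelium, among them Pdx1 and Ptf1a, were detected in every pool.

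Etv5 rose in the mutant pools to 2.09 times its control level, the receptor genes Fgfr4 and Fgfr3 fell to 0.609 and 0.618 times theirs, and the ligand gene Fgf9 rose by a smaller factor of 1.26. The remaining 24 tested members did not pass the test, which was edgeR's quasi-likelihood F test with a Benjamini-Hochberg adjusted p under 0.05 over 14687 genes. The members called were thus 4 of 28 (14.3%), with 2 higher and 2 lower. Over all genes tested, 7.95% were called, 3.67% higher and 4.28% lower. In 11 members (39.3%) the 3 mutant values lay entirely to 1 side of the 3 control values, 8 above and 3 below. That was so for 26.4% of all genes tested, 13.1% above and 13.4% below. The log2 fold changes (mutant minus control) of the members had a median of 0.15, against 0.00 over all genes, and ran from -0.71 to 1.06. Of the 28 members, 20 had a positive and 8 a negative log2 fold change.

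**Figure D1:**
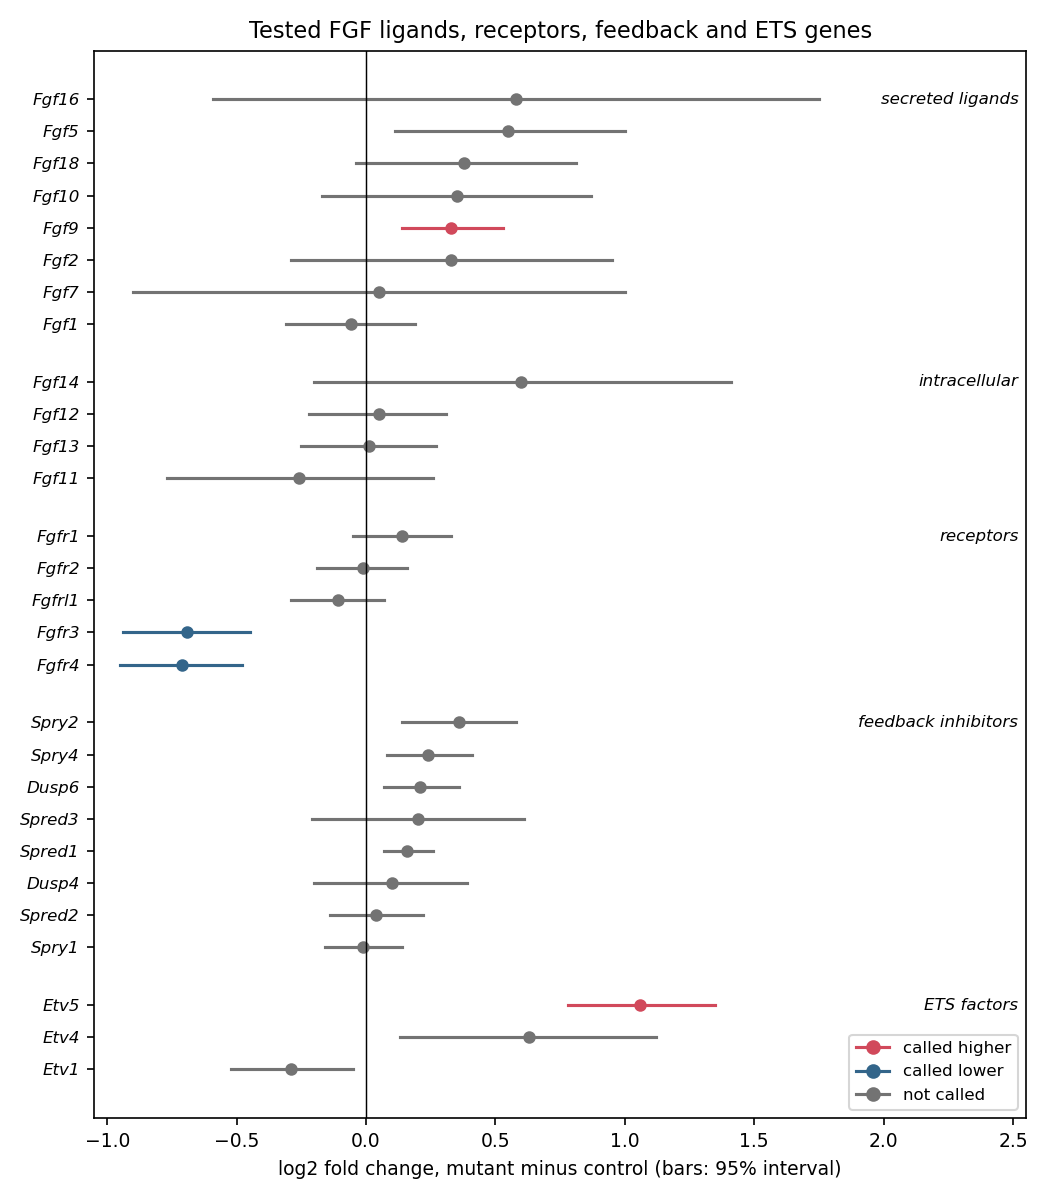
Log2 fold change (mutant minus control) of the 28 tested members, grouped by role, with 95% intervals from edgeR's quasi-likelihood fit. Etv5 stands alone at the upper end at 1.06, and Fgfr4 and Fgfr3 stand at the lower end at -0.71 and -0.69.

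The sequence just upstream of the RefSeq start is shown for the 4 called members, because their promoters differ in CpG content and none gives the letters of the AP-1 or TATA motif searched below. Each is printed 5′ to 3′ on the gene's own strand in lower case, with CG dinucleotides in capitals, and leaves out bases that GENCODE annotates as exon. Positions are on GRCm38. Where RefSeq gives several starts (Etv5 and Fgfr3 have 2 each), the sequence comes from the window nearest the 5′ end of the GENCODE gene.
Etv5, chr16:22439720-22439820, minus strand: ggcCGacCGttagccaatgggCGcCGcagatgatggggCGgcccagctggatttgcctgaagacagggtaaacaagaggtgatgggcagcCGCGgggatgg
Fgfr4, chr13:55152568-55152639, plus strand: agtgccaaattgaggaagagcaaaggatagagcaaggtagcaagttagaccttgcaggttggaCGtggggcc
Fgfr3, chr5:33721474-33721673, plus strand: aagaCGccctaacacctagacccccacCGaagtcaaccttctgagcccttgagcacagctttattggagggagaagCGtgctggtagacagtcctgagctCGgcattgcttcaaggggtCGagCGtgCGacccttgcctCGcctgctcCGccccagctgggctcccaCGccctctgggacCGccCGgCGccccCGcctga
Fgf9, chr14:58072436-58072685, plus strand: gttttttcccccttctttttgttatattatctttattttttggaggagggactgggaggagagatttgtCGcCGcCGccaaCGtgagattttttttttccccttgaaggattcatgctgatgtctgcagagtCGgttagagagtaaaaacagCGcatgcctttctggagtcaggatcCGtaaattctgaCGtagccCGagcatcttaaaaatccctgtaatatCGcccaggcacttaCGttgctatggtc

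CG dinucleotides were counted over the whole window of 250 bases before each RefSeq start. The counts thus include exon bases that are not printed above. Etv5 had 27 in the window printed in part and 18 in its other window, Fgfr3 had 19 and 24, Fgfr4 had 15 and Fgf9 had 11. The median over all 32851 RefSeq windows of that length was 6, with a 10th percentile of 1 and a 90th percentile of 25. Every window of the called members was thus above the median. The Etv5 window with 27, counted with its exon bases, was also above the 90th percentile. RefSeq windows were used for 28 of the 39 members, 37 windows in all, and their median was 16, from 1 to 37. Windows on chromosome 18, which holds Fgf1 and Spry4, were left out for the members but not for the comparison with all windows. The ETS core CCGGAA, read on both strands, was found in 4 of these 37 windows (10.8%), 1 each of Fgf5, Fgf12, Fgfr4 and Fgfrl1, against 12.0% of all windows. In Fgfr4 the match lies in the part of the window that GENCODE annotates as exon and that is not printed above. The AP-1 motif TGANTCA was in 2 of the 37 windows (5.41%), of Fgf12 and Fgf13, against 6.75% of all windows. TATAAA was in 2 (5.41%), of Etv1 and Fgf21, against 12.4%. Several windows belong to the same gene, so they are not independent. The RefSeq start of Fgf9 lies 2139 bases inside the gene as GENCODE draws it, and the 250 bases before that start hold no annotated exon of Fgf9.

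The ETS factor Etv5 had the largest called change among the members. Its gene model (ENSMUSG00000013089.15) spans 22381309 to 22439719 of chromosome 16 on GRCm38, minus strand, and it encodes an ETS-domain transcription factor that ERK signalling induces in many embryonic tissues. Its level was 24.84, 28.14 and 37.17 CPM in control pools 1 to 3 and 63.07, 65.39 and 60.19 CPM in mutant pools 1 to 3. Every mutant pool stood above every control pool, and the mutant pools lay closer together than the controls. The means were 30.05 ± 6.38 CPM in controls and 62.88 ± 2.61 CPM in mutants (SD, n = 3 each). The log2 fold change was 1.06 (SE 0.125, 95% interval 0.78 to 1.35), and edgeR called it at an adjusted p of 0.00147. It was called under each of the 15 alternatives, with log2 fold changes from 0.94 to 1.24. Without control pool 3 and mutant pool 1 it was 1.24 (edgeR adjusted p = 0.000283).

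Etv4 and Etv1, the close relatives of Etv5, did not pass the test, and their fold changes had opposite signs. Etv4 stood at 4.896, 10.05 and 8.065 CPM in the control pools and at 11.19, 12.84 and 11.50 CPM in the mutant pools, and the groups did not overlap. The log2 fold change of Etv4 was 0.63 (95% interval 0.13 to 1.12, edgeR adjusted p = 0.13), and control pool 1 was the lowest of the 6 libraries. Etv4 was called by DESeq2 (adjusted p = 0.0467) and by edgeR without control pool 2 (adjusted p = 0.0301). Etv1, which was higher in all controls, stood at 19.11, 16.81 and 17.59 CPM in the control pools and at 13.08, 16.14 and 14.65 CPM in the mutant pools. For Etv1 this gave a log2 fold change of -0.29 (95% interval -0.52 to -0.05, edgeR adjusted p = 0.14).

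Because Etv5 and Etv1 are read in the same library, their ratio does not depend on how libraries are scaled. The log2 ratio of Etv5 to Etv1 counts was 0.38, 0.74 and 1.08 in the control pools, against 2.27, 2.02 and 2.04 in the mutant pools. The groups lay apart by 1.38 on average. Against Etv4, the log2 ratio of Etv5 was 2.34, 1.49 and 2.20 in the control pools, against 2.49, 2.35 and 2.39 in the mutant pools, a difference of 0.40, with control pool 2 far below the other pools. These belong to 7 such ratios, chosen after the values were seen, and a two-sided exact permutation test of 3 against 3 pools cannot give a p below 0.1. That smallest p was reached for both ratios (adjusted p = 0.117 over the 7).

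Among the receptors, Fgfr4 and Fgfr3 fell and the other 3 genes did not pass the test. Fgfr4 encodes a receptor tyrosine kinase that is also the hepatic receptor of the endocrine ligand Fgf15, and lies on chromosome 13 from 55152640 to 55168759 on the plus strand (ENSMUSG00000005320.9). It stood at 56.36, 69.99 and 64.23 CPM in the control pools and at 33.26, 42.77 and 39.99 CPM in the mutant pools. The highest mutant pool was thus below the lowest control pool. The mean went from 63.52 ± 6.84 to 38.68 ± 4.89 CPM (SD, n = 3 each), a log2 fold change of -0.71 (SE 0.105, 95% interval -0.95 to -0.48, edgeR adjusted p = 0.00443).

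Fgfr3, best known as a brake on cartilage growth, lies on chromosome 5 from 33721674 to 33737068 on the plus strand (ENSMUSG00000054252.18). It stood at 33.31, 36.55 and 37.64 CPM in the control pools and at 25.84, 18.85 and 21.80 CPM in the mutant pools. The groups did not overlap, and mutant pool 1 was the closest to the controls. The mean went from 35.83 ± 2.25 to 22.16 ± 3.51 CPM (SD, n = 3 each), a log2 fold change of -0.69 (SE 0.109, 95% interval -0.94 to -0.45, edgeR adjusted p = 0.00587). GENCODE places a gene model, G630022F23Rik, on the opposite strand, and the strand setting of the counting is not known, so its reads could have been counted here. Both receptor genes were called under all 15 alternatives, Fgfr4 with log2 fold changes from -0.79 to -0.61 and Fgfr3 from -0.82 to -0.59. Without control pool 3 and mutant pool 1, the values were -0.61 for Fgfr4 (edgeR adjusted p = 0.0144) and -0.78 for Fgfr3 (edgeR adjusted p = 0.00459).

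Fgfr1 and Fgfr2, the most abundant signalling receptors in these pools, overlapped between groups. Fgfr1 stood at 190.8, 229.3 and 180.7 CPM in the control pools and at 217.4, 211.1 and 233.0 CPM in the mutant pools, a log2 fold change of 0.14 (95% interval -0.05 to 0.33, edgeR adjusted p = 0.40). Control pool 2 was level with the mutant pools, and without it edgeR called Fgfr1 (0.24, adjusted p = 0.0203). Fgfr2, the epithelial receptor of Fgf10 in its IIIb splice form, stood at 156.7, 188.5 and 172.1 CPM in the control pools and at 155.4, 181.3 and 176.6 CPM in the mutant pools. Its log2 fold change was -0.01 (95% interval -0.19 to 0.16, edgeR adjusted p = 0.964). Counts per gene do not separate its splice forms. Fgfrl1, which encodes a receptor-like protein without a kinase domain, had a log2 fold change of -0.11 (95% interval -0.29 to 0.07, edgeR adjusted p = 0.498).

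Per kilobase of annotated exon (RPKM), the control levels ran from Fgfrl1 at 39.9 ± 3.29 through Fgfr1 at 38.4 ± 4.92 and Fgfr2 at 33.7 ± 3.11 to Fgfr4 at 19.1 ± 2.06 and Fgfr3 at 8.15 ± 0.511 (SD, n = 3 each). Fgfrl1 and Fgfr1 did not differ beyond their spread, and neither did Fgfr1 and Fgfr2. Both Fgfrl1 and Fgfr1 were above Fgfr2 in every control pool. When only the longest transcript gave the length, Fgfrl1 stood at 44.4, Fgfr2 at 40.0 and Fgfr1 at 39.7. Fgfr4 and Fgfr3 were each set apart from the gene above by more than their spread. In mutants, Fgfr4 stood at 11.6 ± 1.47 and Fgfr3 at 5.04 ± 0.798 RPKM.

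The make-up of the 4 kinase receptor messages differed between the groups. Fgfr3 and Fgfr4 together made 26.7, 26.6 and 29.0% of the summed RPKM of Fgfr1 to Fgfr4 in the control pools, against 18.1, 18.4 and 17.7% in the mutant pools. Fgfr4 alone went from between 18.5 and 20.1% to between 11.4 and 13.8%, and Fgfr3 from between 7.54 and 8.90% to between 4.60 and 6.68%. The share of Fgfr1 was 39.9, 39.9 and 36.0% in the control pools, against 47.4, 43.5 and 46.4% in the mutant pools, while that of Fgfr2 overlapped, from 33.4 to 35.0% and from 34.5 to 38.1%. Shares sum to a whole, so the share of Fgfr1 is not independent of those of Fgfr3 and Fgfr4. The log2 ratio of Fgfr4 to Fgfr2 counts was -1.48, -1.43 and -1.42 in the control pools, against -2.22, -2.08 and -2.14 in the mutant pools. That ratio differed by -0.71 and the ratio of Fgfr3 to Fgfr1 by -0.85, each at the smallest exact permutation p of 0.1 (adjusted p = 0.117 over the 7 ratios).

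**Figure D2:**
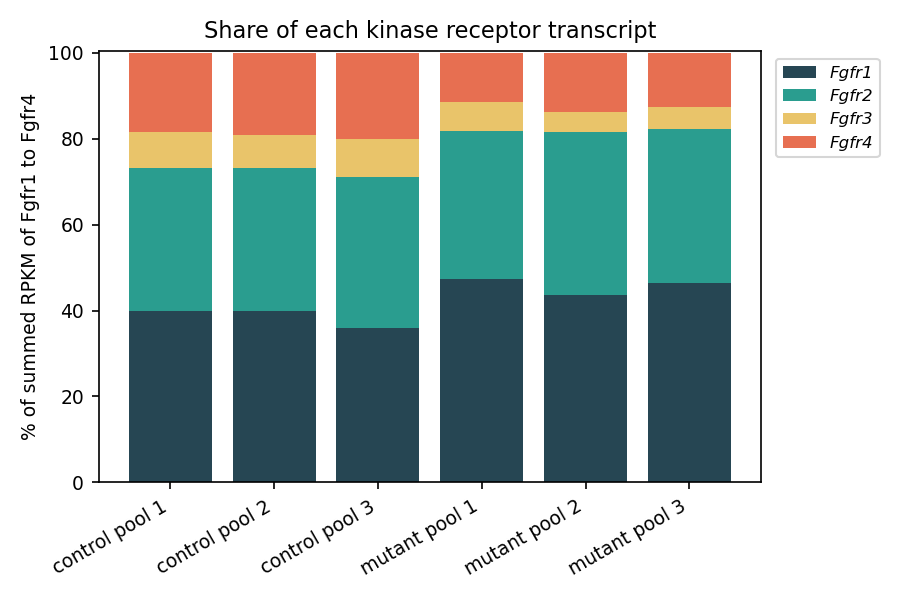
Share of the summed RPKM of Fgfr1 to Fgfr4 held by each receptor gene in each of the 6 pools, in percent. Fgfr3 and Fgfr4 together take 26.6 to 29.0% in the control pools and 17.7 to 18.4% in the mutant pools.

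Pools hold several cell types, so fewer cells of a type and less RNA per cell cannot be told apart. Some markers of endocrine cells, hepatocytes, neural crest and neurons, and epithelium were also called lower in the mutant pools, as Fgfr3 and Fgfr4 were. Of 8 endocrine markers 6 were called lower, and their summed level was 1911 to 2541 CPM in controls and 1356 to 1449 CPM in mutants. Gcg made 64.2% of that sum. Of 6 hepatocyte markers 5 were called lower, at 1141 to 1680 CPM in controls and 404.1 to 495.2 CPM in mutants, and Serpina6 made 45.2% of the sum. Of 8 neural crest and neuron markers 5 were called lower, at 113.4 to 174.5 and 76.04 to 84.51 CPM. The 8 epithelial markers, 3 of them called lower, summed to 2172 to 3039 CPM in controls and 2509 to 3166 CPM in mutants, and Cpa1 made 54.9% of that sum. Their median log2 fold change was -0.28, and 6 were at an unadjusted p under 0.05 in edgeR. No marker on these lists was at 0 in any pool, and the part of these cell types in the receptor values was not tested.

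Of the 18 secreted ligand genes, 8 were tested, and only Fgf9 was called. Their median log2 fold change was 0.34, and 7 of the 8 were positive. Fgf9 encodes a ligand that acts mainly on mesenchymal receptor forms and lies on chromosome 14 from 58070547 to 58112720 on the plus strand (ENSMUSG00000021974.15). It stood at 13.85, 12.61 and 13.79 CPM in the control pools and at 17.54, 16.73 and 16.42 CPM in the mutant pools, so every mutant pool was higher. The log2 fold change was 0.33 (SE 0.0855, 95% interval 0.14 to 0.53, edgeR adjusted p = 0.0484), from 13.42 ± 0.701 to 16.90 ± 0.580 CPM (SD, n = 3 each).

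The call for Fgf9 lay at the threshold. It was lost under 11 of the 15 alternatives, among them DESeq2 (adjusted p = 0.123), total-count scaling (edgeR adjusted p = 0.0666) and the removal of any 1 pool (edgeR adjusted p between 0.0976 and 0.138), with a log2 fold change of 0.28 to 0.36 throughout. Without control pool 3 and mutant pool 1 the adjusted p was 0.188 in edgeR. GENCODE has the gene model Gm17109 on the opposite strand, and reads of that model could not be told apart from those of Fgf9. Opposite-strand models also overlap other members, among them Fgfr1, Fgfr2, Fgf10, Spry1 and Spry4. Their counts, shares and ratios carry the same limit.

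Fgf10, the mesenchymal ligand of pancreatic progenitors, stood at 7.284, 5.360 and 4.325 CPM in the control pools and at 8.992, 7.187 and 5.550 CPM in the mutant pools. The groups overlapped, and the spread within each group was as large as the difference between them. Its log2 fold change was 0.35 (95% interval -0.17 to 0.87, edgeR adjusted p = 0.446). The log2 ratio of Fgf9 to Fgf10 counts differed by -0.03 between groups (exact permutation p = 0.9). Fgf7, the closest relative of Fgf10, was near the limit of counting at 0.597, 0.3045 and 0.7013 CPM in the control pools, against 0.5659, 0.707 and 0.4005 CPM in the mutant pools. At this depth the 95% interval of its log2 fold change ran from -0.90 to 1.00 (edgeR adjusted p = 0.967).

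Fgf18, a ligand known from lung and skeleton, stood at 4.657, 4.873 and 3.156 CPM in the control pools and at 6.037, 5.302 and 5.207 CPM in the mutant pools. The groups did not overlap, yet edgeR did not call the log2 fold change of 0.38 (95% interval -0.04 to 0.81, adjusted p = 0.292). Fgf5 had a log2 fold change of 0.55 (edgeR adjusted p = 0.139) and overlapped by a narrow margin, with the highest control pool at 4.179 CPM and the lowest mutant pool at 4.150 CPM. The other tested ligands were Fgf1 (-0.06), Fgf2 (0.33) and Fgf16 (0.58), and edgeR called none of them, with adjusted p from 0.567 to 0.834.

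On the RPKM scale, the control level was 3.56 ± 0.788 for Fgf18, 2.99 ± 0.156 for Fgf9, 1.94 ± 0.101 for Fgf1, 1.39 ± 0.264 for Fgf5 and 1.37 ± 0.365 for Fgf10 (SD, n = 3 each). Fgf18 and Fgf9 did not differ beyond their spread, and neither did Fgf5 and Fgf10. Fgf16, Fgf7 and Fgf2 lay far lower, between 0.141 and 0.287 RPKM. Even Fgf18 and Fgf9 stood far below the 38.4 RPKM of Fgfr1.

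**Figure D3:**
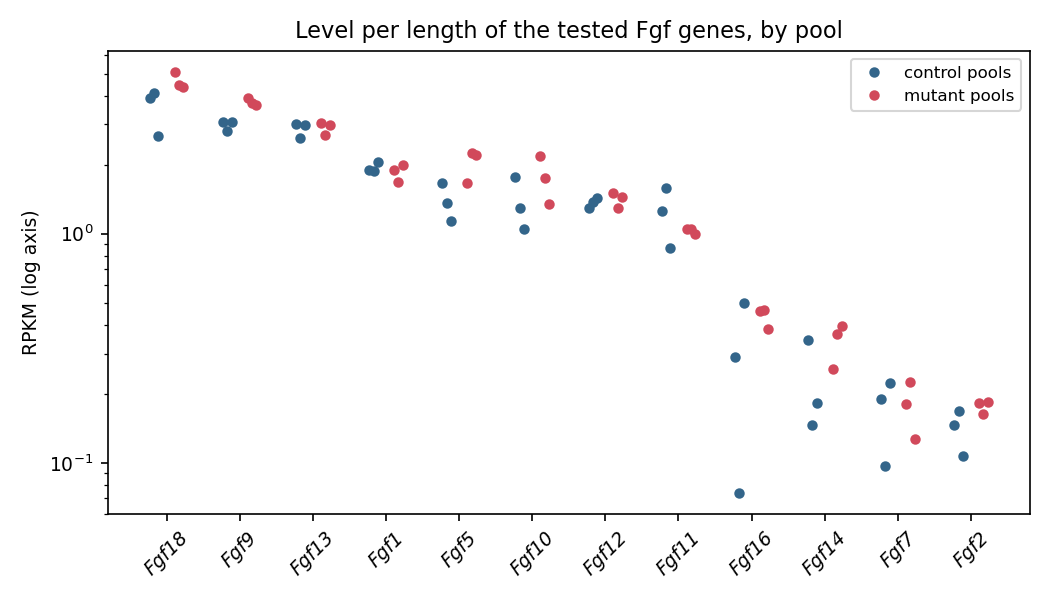
Level of the 12 tested Fgf genes in RPKM (log axis) in each control and mutant pool. Fgf18, Fgf9 and Fgf13 lie highest, at control means of 3.56, 2.99 and 2.87, and Fgf2 lies lowest at 0.141.

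The intracellular FGF-like genes Fgf11 to Fgf14, whose proteins stay in the cell and are best known for binding sodium channels, were all tested, and edgeR called 0 of 4, with 0 at an unadjusted p under 0.05, and DESeq2 and limma voom also called 0. Their log2 fold changes were -0.26 for Fgf11, 0.05 for Fgf12, 0.01 for Fgf13 and 0.60 for Fgf14, with a median of 0.03. In each of the 4 genes the groups overlapped. Fgf13 stood at 2.87 ± 0.216 RPKM in controls and 2.90 ± 0.176 RPKM in mutants (SD, n = 3 each), and the sign of its small difference turned with total-count scaling.

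The remaining 10 Fgf genes were below the count filter. Fgf20 had 0, 0 and 1 reads in the control pools, against 7, 10 and 9 reads in the mutant pools, a sum of 1 against 26. It encodes a ligand of the same subfamily as Fgf9 and Fgf16, and its gene model spans 40279166 to 40308331 of chromosome 8, minus strand. The ratio of the summed counts was 26.0, with an exact counting interval of 4.26 to 1060 that covers counting error only. Of these 10 genes only Fgf20 was given such an interval. It had the widest gap in these same counts, so the interval is not independent of that choice. Each mutant pool was above each control pool, but the highest level was only 0.589 CPM. The fit without a filter on low counts was the only one of the alternatives to test Fgf20, and there edgeR called it (adjusted p = 0.0109). Micu3, listed under its older symbol Efha2, runs on the opposite strand and overlaps the end of a longer Fgf20 transcript. It had 228 to 273 reads per library.

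Fgf8 had 3, 2 and 4 reads in the control pools, against 4, 4 and 7 in the mutant pools, too few to separate the groups although their CPM values did not overlap. Fgf17 had 2 reads over the controls and 8 over the mutants, and Fgf6 had 0 and 4, all 4 of them in mutant pool 2. Fgf3, Fgf4, Fgf15, Fgf21 and Fgf22 had no more than 3 reads in any pool. Fgf23, the endocrine ligand that controls phosphate, had 0 reads in every pool, where 3 counts would have been 0.172 to 0.189 CPM.

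The feedback inhibitors comprised 9 genes, of which Spry3 had 0 reads in every pool and 8 were tested. EdgeR called 0 of the 8, 4 were at an unadjusted p under 0.05, DESeq2 called 1 (Spry2) and limma voom called 0. The median log2 fold change was 0.18, and 7 of the 8 were positive. Spred1, Spry2, Spry4 and Dusp6 had every mutant pool above every control pool, and no member of the group had the reverse. Over all genes tested, 13.1% had every mutant pool above every control pool and 13.4% had the reverse.

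Spry2, which restrains receptor signalling to RAS, stood at 27.11, 30.52 and 23.90 CPM in the control pools and at 38.11, 33.40 and 33.18 CPM in the mutant pools. Its log2 fold change was 0.36 (95% interval 0.14 to 0.58, edgeR adjusted p = 0.0587). The adjusted p was 0.0242 in DESeq2, 0.0499 in edgeR with no filter and 0.0181 in edgeR without control pool 2, against 0.282 without control pool 3 and mutant pool 1. Spry4 stood at 32.90, 35.45 and 29.63 CPM in the control pools and at 37.79, 38.65 and 39.36 CPM in the mutant pools. For Spry4 the log2 fold change was 0.24 (95% interval 0.08 to 0.41, edgeR adjusted p = 0.087, and 0.0314 without control pool 2).

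Spry1 differed from these relatives in having overlapping groups, with 61.91, 62.13 and 56.16 CPM in the control pools, against 55.52, 60.21 and 63.22 CPM in the mutant pools. That is a log2 fold change of -0.01 (95% interval -0.16 to 0.14, edgeR adjusted p = 0.964). The log2 ratio of Spry2 to Spry1 counts was -1.19, -1.03 and -1.23 in the control pools, against -0.54, -0.85 and -0.93 in the mutant pools. That of Spry4 to Spry1 was -0.91, -0.81 and -0.92 in the control pools, against -0.56, -0.64 and -0.68 in the mutant pools. Neither ratio overlapped between groups, and both were at the smallest exact permutation p of 0.1 (adjusted p = 0.117 over the 7 ratios).

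Dusp6, the phosphatase that switches off ERK in the cytoplasm, stood at 47.23, 46.90 and 51.37 CPM in the control pools and at 59.23, 52.73 and 56.41 CPM in the mutant pools. The log2 fold change was 0.21 (95% interval 0.07 to 0.36, edgeR adjusted p = 0.0881). Spred1, which acts on RAS through neurofibromin, stood at 106.6, 107.9 and 111.0 CPM in the control pools and at 125.3, 117.5 and 121.9 CPM in the mutant pools. Its log2 fold change was 0.16 (95% interval 0.07 to 0.26) and just missed the threshold (edgeR adjusted p = 0.0535). In both genes the gap between groups was small beside the level. Dusp4, Spred2 and Spred3 overlapped between groups, with log2 fold changes of 0.10, 0.04 and 0.20.

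**Figure D4:**
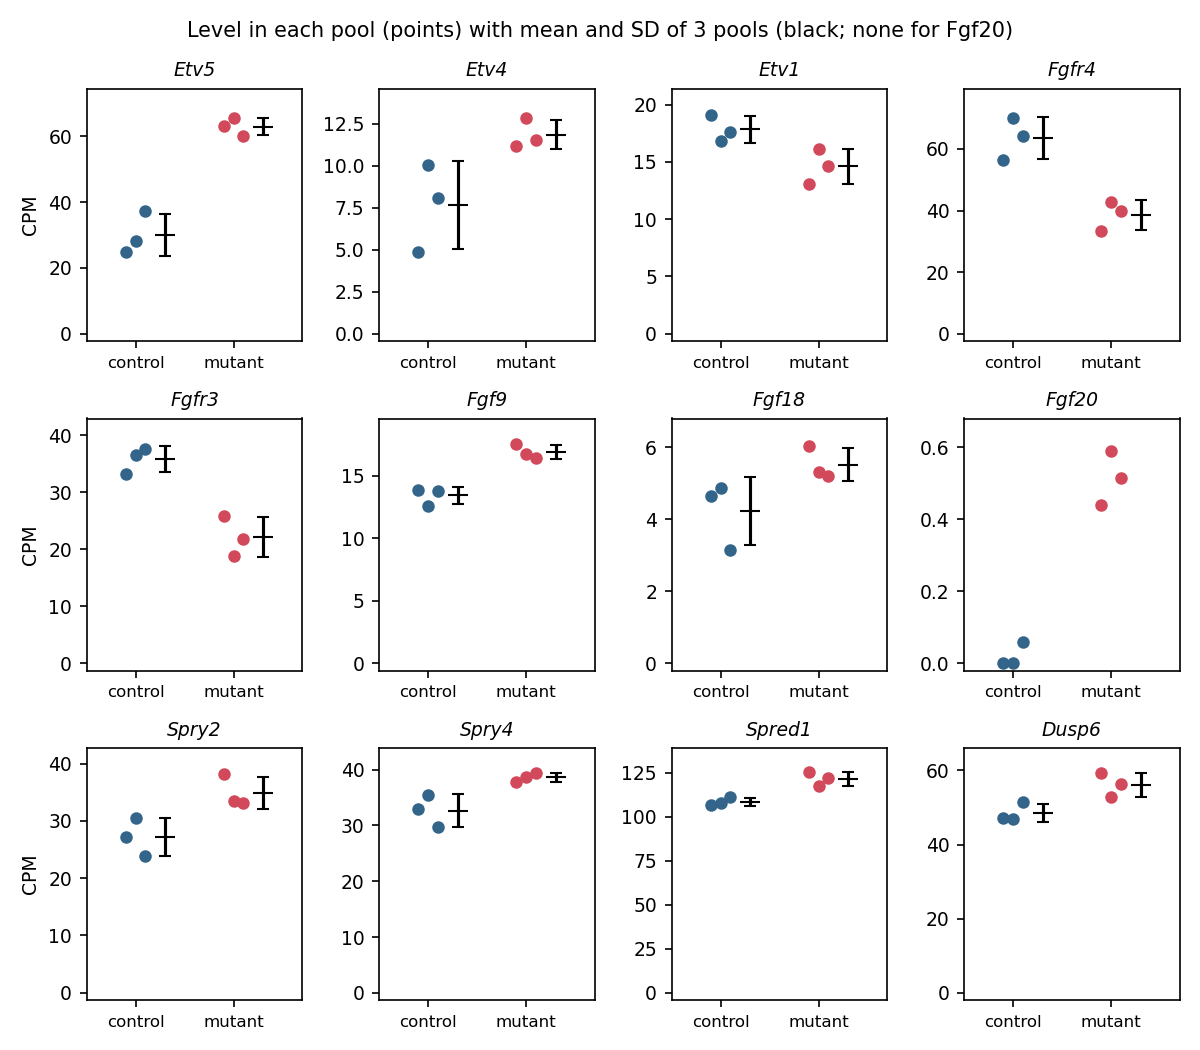
CPM in each pool (points) of the 11 tested members whose groups do not overlap and of Fgf20, with the mean and SD of 3 pools beside them (no mean for Fgf20) and an axis for each panel. Etv5 runs from 24.84 to 37.17 CPM in the controls and from 60.19 to 65.39 CPM in the mutants, and Fgfr4 from 56.36 to 69.99 CPM and from 33.26 to 42.77 CPM.

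Some markers of mesenchyme, myeloid cells and erythroid cells were also called higher in the mutant pools, as Etv5 and Fgf9 were. The 8 mesenchymal markers, of which 2 were called higher, summed to 6710 to 6885 CPM in controls and 7534 to 8447 CPM in mutants. Col3a1 made 51.1% of that sum. The 6 endothelial markers, with 0 called by edgeR or DESeq2, 4 at an unadjusted p under 0.05 and a median log2 fold change of 0.23, summed to 537.9 to 612.0 and 605.3 to 780.7 CPM. Of 4 tested mesothelial markers 1 was called higher, at 179.8 to 194.0 and 190.5 to 245.7 CPM, so that the sums overlapped, with Msln at 0 in some pools. Of 5 myeloid markers 2 were called higher, at 67.38 to 85.14 and 98.07 to 134.0 CPM. Of 7 erythroid markers 4 were called higher, and their median log2 fold change of 2.24 was the highest of the 10 marker lists. Their summed level, 1358 to 2105 CPM in controls and 1539 to 2236 CPM in mutants, overlapped, and Hbb-y made 96.7% of it. Gut and spleen markers had 1 of 5 called lower, at 90.47 to 139.5 and 71.52 to 108.4 CPM, with Cdx2 at 0 in some pools. The part of these cell types in the values of Etv5, Fgf9 and the feedback genes was not tested.

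A list of 61 other genes of the pathway was all found in the files, 59 of them tested. Of these, 8 (13.6%) were called by edgeR, 6 higher and 2 lower, against the 7.95% of all genes. No overlap between groups was seen in 21 (35.6%), against 26.4% of all genes tested. The median log2 fold change of 0.02 was close to that of all genes. Of 19 heparan sulphate genes 3 were called higher and 0 lower, and 15 had a positive log2 fold change, with a median of 0.13 over the 19. Gpc3, a cell surface proteoglycan, went from 1012 ± 49.2 to 1200 ± 55.3 CPM (log2 fold change 0.25, edgeR adjusted p = 0.0289). Hs6st2, a sulphotransferase that modifies the chains FGFs bind, went from 69.67 ± 8.73 to 91.27 ± 6.50 CPM (log2 fold change 0.39, edgeR adjusted p = 0.0341). Sdc2, another proteoglycan, had a log2 fold change of 0.20 (edgeR adjusted p = 0.0427) and was called under 5 of the 15 alternatives.

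Of 20 adaptors and kinases, 16 had a negative log2 fold change, but their median of -0.02 was close to the 0.00 of all genes. Over all genes tested, 7314 of 14687 were negative. Mapk3 was the 1 adaptor or kinase called lower. Mapk3, encoding ERK1, went from 125.4 ± 1.60 to 110.1 ± 4.75 CPM (log2 fold change -0.19, edgeR adjusted p = 0.037). The receptor adaptor gene Frs2 overlapped between groups, with a log2 fold change of -0.01 (95% interval -0.13 to 0.11). The change of Mapk3 was smaller than those of Fgfr3 and Fgfr4.

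Of the 6 other dual-specificity phosphatases, Dusp14 was called. It stood at 3.821, 3.533 and 3.974 CPM in the control pools and at 5.345, 7.128 and 6.522 CPM in the mutant pools, a log2 fold change of 0.75 (SE 0.157, edgeR adjusted p = 0.0221). All mutant pools were higher, and this was the largest called change of the list. Of 7 tested co-receptors and binding proteins, Flrt3, encoding a membrane protein that binds FGF receptors, was called (log2 fold change 0.24, edgeR adjusted p = 0.0372). The call for Flrt3 held under 5 of the 15 alternatives, and DESeq2 called 0 of the 7 genes. Klb, the co-receptor through which Fgfr4 binds endocrine ligands, was at 11.05, 15.71 and 14.84 CPM in the control pools and at 7.860, 9.897 and 11.39 CPM in the mutant pools. Its groups overlapped narrowly, and edgeR did not call the log2 fold change of -0.51 (95% interval -0.90 to -0.12, adjusted p = 0.116). Il17rd, a membrane inhibitor of FGF signalling, had a log2 fold change of 0.01 (95% interval -0.16 to 0.17).

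The splicing regulators Esrp1 and Esrp2, which favour epithelial forms of the FGF receptors, were both lower on average. Esrp2 stood at 39.34, 41.36 and 45.23 CPM in the control pools and at 27.29, 35.52 and 31.93 CPM in the mutant pools, and edgeR called it (log2 fold change -0.41, SE 0.0978, adjusted p = 0.0367). Esrp1 was not called (log2 fold change -0.15, edgeR adjusted p = 0.186). The immediate-early and growth genes Egr1, Fos, Ier3, Ccnd1 and Myc all had positive log2 fold changes, from 0.06 to 0.47 with a median of 0.46. In each of these 5 genes the groups overlapped. EdgeR and limma voom called 0 of these 5 and DESeq2 called 1, with 1 at an unadjusted p under 0.05 in edgeR.

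The number of pathway calls, 8 with all pools, fell when any 1 pool but control pool 2 was left out. EdgeR called 1 of the 59 genes when control pool 1, control pool 3 or mutant pool 2 was left out. It called 2 without mutant pool 1 and 3 without mutant pool 3. Over all genes, the calls also fell in these fits, from 1167 to between 629 and 798. Without control pool 2 there were 8 pathway calls and 1421 calls over all genes. Total-count scaling left 5 calls, 3 higher and 2 lower. Among the FGF members, leaving out any 1 pool but control pool 2 kept Etv5, Fgfr3 and Fgfr4 as the 3 called genes. The fit without control pool 2 called 7, adding Etv4, Fgfr1, Spry2 and Spry4. With total-count scaling the calls among the members were 1 higher and 2 lower.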

How the data were processed

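RNA of the pancreas of mouse embryos was sequenced from 3 control and 3 mutant pools, with 1 TruSeq library per pool. The authors deposited whole-number read counts per gene symbol, not normalized. Per the submitters' processing notes, cutadapt 1.13, STAR, HTSeq 0.6.1p1, DESeq2 and build mm10 were named. For the annotation, strandedness and reads with several matches, the setting is "not given in the sources used here", and near-identical genes can lose reads by such counting.

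The counts were tested with edgeR 4.0.16 in R 4.3.3: filterByExpr with a minimum count of 10, TMM scaling, a quasi-likelihood F test with genotype as the only term, and Benjamini-Hochberg adjustment over 14687 genes. CPM is the count scaled to the TMM-adjusted library total, and RPKM divides it by the union of GENCODE M21 basic exons (GRCm38). Standard errors are the size of the log2 fold change over the square root of F, and the 95% intervals use the t distribution with the fit's degrees of freedom. The script was tested on simulated counts. Promoter windows of 250 bases came from RefSeq (GRCm38.p6).

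The members and lists were chosen with earlier results of these data known. Values per pool are given for members that were called, whose groups did not overlap, or that were named by role, and for the pathway list up to 4 called genes in each direction with the smallest p plus Klb, Il17rd, Esrp1 and Frs2. Sdc2 and Flrt3 were added after their values were seen. A result for 1 gene that the rule names is not reported here. Alternatives were DESeq2 size factors, upper-quartile and total-count scaling, no filter, limma 3.58.1 voom, a filter of 1 CPM in 3 libraries, DESeq2 1.42.0 (Wald test), a replicate block, and leaving out each pool. The fit without control pool 3 and mutant pool 1 together was chosen after seeing the data.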

Additional observations from a re-analysis of the deposited data

How the results depend on the processing

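Under 15 alternatives Etv5, Fgfr3 and Fgfr4 kept their direction and their call, and Fgf9 kept its direction but was called in 4. Pathway calls numbered 8 in the comparison as reported, 5 with total-count scaling, 2 without control pool 3 and mutant pool 1, and 1 to 8 when 1 pool was left out. For all genes the calls were 1167 as reported, 665 without that pair of pools and 629 to 1421 when 1 pool was left out. Members called ranged from 3 to 7 over the same leave-outs, and called members that were higher from 1 to 5. The replicate block gave 3 member calls (Fgf9 adjusted p = 0.0691 in edgeR), 7 pathway calls and 1138 calls over all genes, and Klb was called by edgeR there (adjusted p = 0.0302). Deviations of pools with equal numbers correlated by 0.133, 0.107 and -0.084, and control pool 2 correlated best with mutant pool 3 (0.200), so the numbers were not taken as pairs. Small log2 differences changed sign: with total-count scaling Fgf13 was -0.013 and Il17rd -0.020, and without the pair of pools Fgfr2 was 0.050 and Il17rd -0.066. Leaving out 1 pool gave ranges of -0.037 to 0.185 for Dusp4, -0.112 to 0.003 for Fgf1, -0.002 to 0.109 for Fgf12, -0.052 to 0.063 for Fgf13, -0.225 to 0.292 for Fgf7, -0.075 to 0.054 for Fgfr2, -0.033 to 0.107 for Spred2, -0.059 to 0.040 for Spry1, -0.050 to 0.017 for Frs2 and -0.035 to 0.073 for Il17rd. The cause was not tested. Total-count scaling moved the median of all genes by -0.026. Depth limits the 11 untested members and Fgf7, Fgf16, Fgf14 and Fgf2, which stood near or below 1 CPM.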
